A study of Saccharomyces cerevisiae with 4 samples.

Results

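Yeast cells store glucose as trehalose, a disaccharide, and as glycogen, a branched polymer. Of the 6673 genes in the deposited tables, 10 were taken as the genes of these reserves by their identifiers, with earlier results of these data known. TPS1, TPS2 and TSL1 code for subunits of the trehalose synthase complex and NTH1 for neutral trehalase, GSY1 and GSY2 for glycogen synthase, GLC3 for the branching enzyme and GPH1 for glycogen phosphorylase, and PGM2 and UGP1 for the enzymes that make UDP-glucose, the substrate shared by both routes. RNA was sequenced from 2 replicates of the wild type strain (WT) and 2 of a strain without *PUF3* (*PUF3Δ*), the gene of an RNA binding protein that acts in the decay of its target mRNAs. In the labels both strains are BY4742, with the alleles his3Δ1, leu2Δ0, met15Δ0 and ura3Δ0 and mating type MATa, whereas the paper's methods name BY4741, and both were moved from glucose medium to YPEG, in which ethanol and glycerol are the carbon sources, and harvested at an optical density of 1.0. Each strain is a single isolate, how *PUF3* was deleted is not given in the sources used here, and the growth rate was not among the measurements. Whether the replicates were separate cultures is not stated either, so that the p-values below measure only the spread between these libraries.

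Trehalose is made from UDP-glucose and glucose 6-phosphate, first as trehalose 6-phosphate by Tps1 and then, with the phosphate removed, by Tps2, while Tsl1 is a regulatory subunit of the same complex. Glycogen synthase adds glucose from UDP-glucose to a growing chain, Glc3 makes the branches, and Gph1 releases glucose phosphate from the chain ends. Both reserves are known to accumulate when yeast slows its growth, runs out of glucose or meets stress, and many of the genes carry the stress response element, the binding sequence of the transcription factors Msn2 and Msn4, in their promoters.

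The expression level of each gene is given as RPKM, reads per kilobase of gene scaled to the total on all listed genes. The WT libraries held 7370059 and 8228693 reads and the *PUF3Δ* libraries 6703910 and 8119223, recovered from the RPKM values. *PUF3* itself took 569 and 761 reads in the WT libraries, but only 2 and 6 in those of *PUF3Δ*. The strain markers followed the genotype in the labels only in part. The values of MET17 and of the mating type genes given below did not follow met15Δ0 and MATa. URA3 had 0 reads in each of the 4 libraries and LEU2 at most 4. HIS3, which overlaps another listed gene, had an RPKM of 302 and 85.3 in the WT and *PUF3Δ* means. The name his3Δ1 does not say how much of the gene is missing, so these reads cannot be held against it. MET17, whose other name is MET15 and which overlaps another listed gene, stood at an RPKM of 523 ± 15.4 in WT (SD, n = 2) and 118 ± 10.5 in *PUF3Δ*, LYS2 had at most 4 reads in a library, and the alpha cell gene MF(ALPHA)1 had an RPKM of 4521 and 1748 in the WT and *PUF3Δ* means, against 14.4 and 4.67 for the a cell gene STE2.

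Each of the 10 genes is annotated with 1 coding exon and was measured in every library, with between 1241 and 5734 reads each. Together they took 0.345% and 0.374% of the reads in WT and 0.449% and 0.469% in *PUF3Δ*, with exact 95% binomial intervals, which cover counting error only, from 0.341% to 0.349%, 0.370% to 0.378%, 0.444% to 0.454% and 0.464% to 0.474%. Differences between the strains were tested by limma on log2(RPKM + 1) for the 5860 genes whose mean RPKM reached 1, at a Benjamini-Hochberg adjusted p of 0.05. A log2 difference is *PUF3Δ* minus WT throughout. Of the 10 genes, 5 were higher in *PUF3Δ* (TSL1, GLC3, TPS2, NTH1 and PGM2), against 18.9% of all genes tested, and 2 were lower (GSY2 and UGP1), against 54.2% of all genes. The other 3, TPS1, GPH1 and GSY1, did not pass the test. The median log2 difference of the 10 genes was 0.29 and that of all genes was -0.39.

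The zero of this scale depends on how the libraries are made comparable. Median-of-ratios scaling, which sets the typical gene to no change, moved the median of all genes to -0.01, with 33.9% of genes higher and 33.2% lower in *PUF3Δ*. The split of the 10 genes then went from 5 higher and 2 lower to 9 higher and 0 lower by limma, with all 10 differences above 0 and GSY2 alone not past the threshold. An RPKM is a share of a library's reads, so more of one transcript and less of the others cannot be told apart. The RPKM values of WT and *PUF3Δ* did not overlap for 8 of the 10 genes, a share close to the 87.6% of all genes tested.

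**Figure D1:**
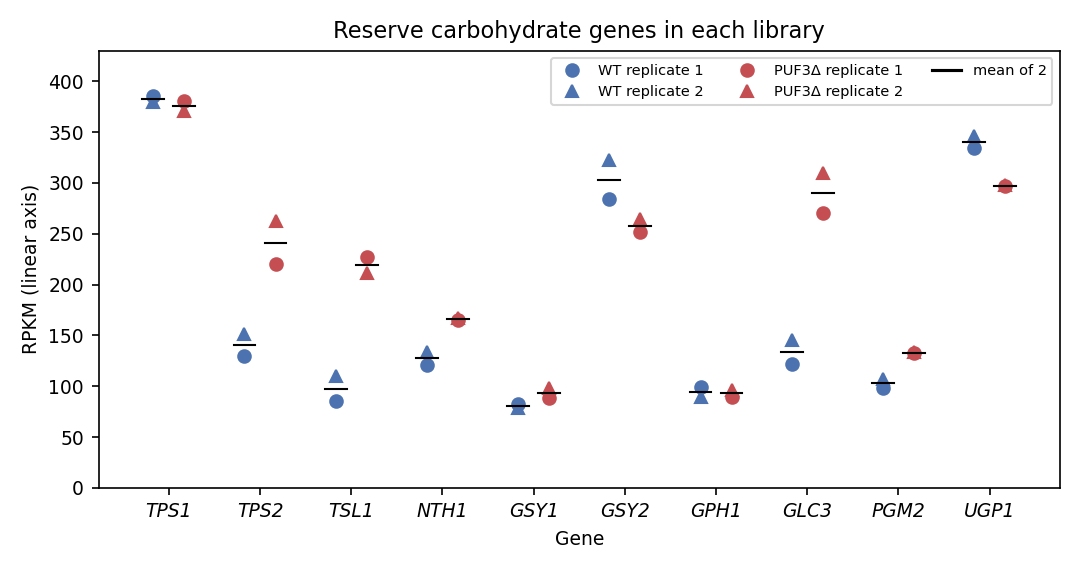
RPKM of the 10 genes (linear axis) in the 2 WT libraries (blue) and the 2 *PUF3Δ* libraries (red), with circles for replicate 1, triangles for replicate 2 and bars for the mean of 2. The red points of TPS2, TSL1 and GLC3 lie far above the blue ones, while those of TPS1 and GPH1 overlap them.

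All 10 genes hold the stress response element at least once in the 600 bases before the start codon. The element nearest to the start is shown for 9 of them, as a feature they share that was not used to choose them. It was searched as AGGGG on both strands, so that CCCCT is the same element on the other strand, and overlapping matches were counted. The sequences are from R64, 5′ to 3′ on the coding strand of the gene, with the element in capitals.
TPS1: caggggctctcAGGGGggcgccatggaca
TPS2: gggtctgattatAGGGGttagttacgctc
TSL1: ggggtagaaccaAGGGGctagcacactca
NTH1: ctagaaattttcCCCCTatcgttttccgt
GSY1: ccacaagtaataCCCCTtggaggattttt
GSY2: gaacgcaattcaCCCCTttctttcttatg
GLC3: aagctttgtccaAGGGGctgttgcaacgg
PGM2: ccaggaacaaacAGGGGttgaaaagtgta
UGP1: ccccttcccccgCCCCTtctcgaacagcc

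Counted back from the start codon, the first base of the element was at -239 in TPS1, -308 in TPS2, -165 in TSL1, -152 in NTH1, -332 in GSY1, -196 in GSY2, -213 in GLC3, -216 in PGM2 and -260 in UGP1. In the 600-base window every one of the 10 genes had at least 2 elements, from 2 in GSY1 and GSY2 to 6 in TPS1 and PGM2, whereas 10.7% of the 5981 genes searched had 2 or more and 39.7% had at least 1. Among 12 other enzymes described below, the same window held 5 in SGA1 and HXK1 and 3 in PGM1 and GLK1. It held 2 in TPS3, GLG2 and PRM15, 1 in ATH1 and GDB1, and 0 in NTH2, GLG1 and HXK2. This window was added after a shorter one had been read. In the shorter window, from 250 bases before to 50 after the start, 6 of the 10 genes had the element, against 21.6% of 5983 genes. The number of elements did not order the genes by their difference between the strains, since TPS1 with 6 did not pass the test and GLC3 with 3 was among the largest increases. Over all tested genes with a searched window of 600 bases, 15.1% of the 3372 genes without the element were higher in *PUF3Δ*, and 47.5% of the 141 genes with 3 or more. The shares lower in these groups were 59.0% and 30.5%, and the median log2 differences -0.45 and 0.20. With 1 and 2 elements, 22.1% and 31.7% were higher. These shares count the 10 genes as well, and they use the values as deposited, without correction for gene length. None of the 10 genes had the Puf3p recognition element TGTANATA, searched on the coding strand in the 200 bases after the stop codon, where 14.1% of 5984 genes hold it. Of the 12 other enzymes described below, TPS3, NTH2, HXK1 and GLK1 each held 1. None of the 10 genes had the post-diauxic element TNAGGGAT, searched on both strands in the shorter promoter window only, where 2.71% of the 5983 genes hold it. These matches describe letters in a window and say nothing of whether a factor was bound.

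TSL1 (YML100W, chromosome XIII of R64 from 70624 to 73920), the regulatory subunit of the trehalose synthase complex, had the largest difference of the 10 genes as deposited. Its RPKM was 85.0 and 109.7 in WT and 227 and 211 in *PUF3Δ*. Both *PUF3Δ* libraries were well above both WT libraries, and the strains differed by more than the WT replicates did. The means were 97.3 ± 17.4 (SD, n = 2) and 219 ± 10.9, a log2 difference of 1.17 (standard error 0.13, adjusted p = 1.5e-04 from limma). After correction for gene length, described below, the value was 0.60, less than the 0.88 of GLC3.

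TPS2 (YDR074W, IV from 593893 to 596583), the phosphatase subunit, had an RPKM of 129.9 and 151 in WT and 220.2 and 262 in *PUF3Δ*. The strains were again apart, although the *PUF3Δ* replicates differed from each other by more than the WT replicates. Its log2 difference was 0.77 (standard error 0.12, adjusted p = 7.5e-04 from limma).

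TPS1 (YBR126C, II from 488905 to 490392), the synthase subunit, had the highest RPKM of the 10 genes in all 4 libraries, with 385 and 379 in WT and 380.4 and 371 in *PUF3Δ*. The strains overlapped. The log2 difference was -0.026, with a 95% interval from -0.20 to 0.14 (adjusted p = 0.76 from limma), and under median-of-ratios scaling it was 0.36 (adjusted p = 0.0042).

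Within the complex, the balance of transcripts shifted towards Tps2 and Tsl1, and a ratio of 2 genes taken inside a library does not depend on the scaling between libraries, although it does depend on gene length where the genes differ in it. TSL1 stood at 0.221 and 0.289 of TPS1 in WT and at 0.596 and 0.570 in *PUF3Δ*, and TPS2 at 0.337 and 0.398 of TPS1 in WT and 0.579 and 0.708 in *PUF3Δ*. On the log2(RPKM + 1) scale the ratios rose by 1.20 and 0.80, with SDs within a strain of at most 0.27, and after the loess for length described below the shifts were 0.60 and 0.36. With 2 libraries against 2, the exact permutation test over libraries (two-sided) gave p = 0.333 for both and for the other 6 pairs of genes compared, the smallest value this design allows, also after adjustment over the 8 pairs. TPS3 (YMR261C), the paralog of TSL1 and the other regulatory subunit, had an RPKM of 38.6 ± 0.548 in WT (SD, n = 2) and 31.2 ± 1.58 in *PUF3Δ*. TSL1 exceeded it 2.23 and 2.81 times in WT and 7.54 and 6.54 times in *PUF3Δ*, the largest shift of the 8 ratios (1.47 on the log2 scale).

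NTH1 (YDR001C, IV from 450220 to 452475), the trehalase that degrades trehalose in the cytosol, had an RPKM of 120.4 and 134 in WT and 165 and 167 in *PUF3Δ*. The increase was smaller than in TSL1 or TPS2 but without overlap, with a log2 difference of 0.38 (standard error 0.09, adjusted p = 0.0055 from limma). The value was 0.10 (adjusted p = 0.26) after correction for gene length, described below. The ratio of TPS1 to NTH1 was 3.20 and 2.83 in WT and 2.31 and 2.22 in *PUF3Δ*, a log2 shift of -0.41 that became -0.10 after the loess for length. NTH2 (YBR001C), its paralog, had an RPKM of 46.6 ± 1.34 (SD, n = 2) and 49.4 ± 1.31, and the ratio of NTH1 to NTH2 was 2.53 and 2.94 in WT and 3.40 and 3.31 in *PUF3Δ*.

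GLC3 (YEL011W, V from 133120 to 135234), the branching enzyme, had the largest difference of the 4 glycogen genes among the 10. Its RPKM was 122 and 145 in WT and 270.2 and 309.7 in *PUF3Δ*, so that it went from the fifth place among the 10 genes in both WT libraries to the third and the second. The means were 134 ± 16.2 (SD, n = 2) and 290.0 ± 27.9, a log2 difference of 1.11 (standard error 0.11, adjusted p = 1.1e-04 from limma).

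The 2 glycogen synthases had differences of opposite sign as deposited, and only one of them passed the test. After median-of-ratios scaling both were above 0 and after the loess for length both were below 0. GSY2 (YLR258W, XII from 660716 to 662833), the more abundant one, had an RPKM of 284 and 323 in WT and 251 and 264 in *PUF3Δ*. It was lower in *PUF3Δ* without overlap, but the nearest libraries of the strains were closer to each other than the WT replicates, and the log2 difference of -0.23 (standard error 0.09, adjusted p = 0.049 from limma) only just passed the threshold. The call was lost without WT replicate 2 (-0.14, adjusted p = 0.16), without *PUF3Δ* replicate 1 (-0.20, adjusted p = 0.24) and without *PUF3Δ* replicate 2 (-0.27, adjusted p = 0.12), and under median-of-ratios scaling the value was 0.16 (adjusted p = 0.15). With the replicate number as a block the adjusted p was 0.051.

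GSY1 (YFR015C, VI from 174265 to 176391) had an RPKM of 82.0 and 78.9 in WT and 88.7 and 98.3 in *PUF3Δ*, a log2 difference of 0.21 with a 95% interval from 0.00084 to 0.43 (adjusted p = 0.065 from limma). It was the lowest of the 10 genes in both WT libraries. The ratio of GSY2 to GSY1 was 3.46 and 4.09 in WT and 2.83 and 2.69 in *PUF3Δ*, a drop of the log2 ratio by 0.44 (exact permutation p = 0.333).

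GPH1 (YPR160W, XVI from 861306 to 864014), which breaks glycogen down, had overlapping strains, with an RPKM of 99.0 and 89.3 in WT and 89.8 and 96.3 in *PUF3Δ*. The log2 difference was -0.016, with a 95% interval from -0.23 to 0.20 (adjusted p = 0.88 from limma). It became 0.37 (adjusted p = 0.0097) with median-of-ratios scaling and -0.44 (adjusted p = 0.0063) after correction for gene length, so neither its direction nor its call was settled. GPH1 shares 81 bases with YPR160W-A on the same strand, which had an RPKM between 16.5 and 23.6. The ratio of GSY2 to GPH1 was 2.87 and 3.61 in WT and 2.80 and 2.74 in *PUF3Δ*, a shift smaller than the difference between the WT libraries. The log2 shift was -0.22, and -0.023 after the loess for length.

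**Figure D2:**
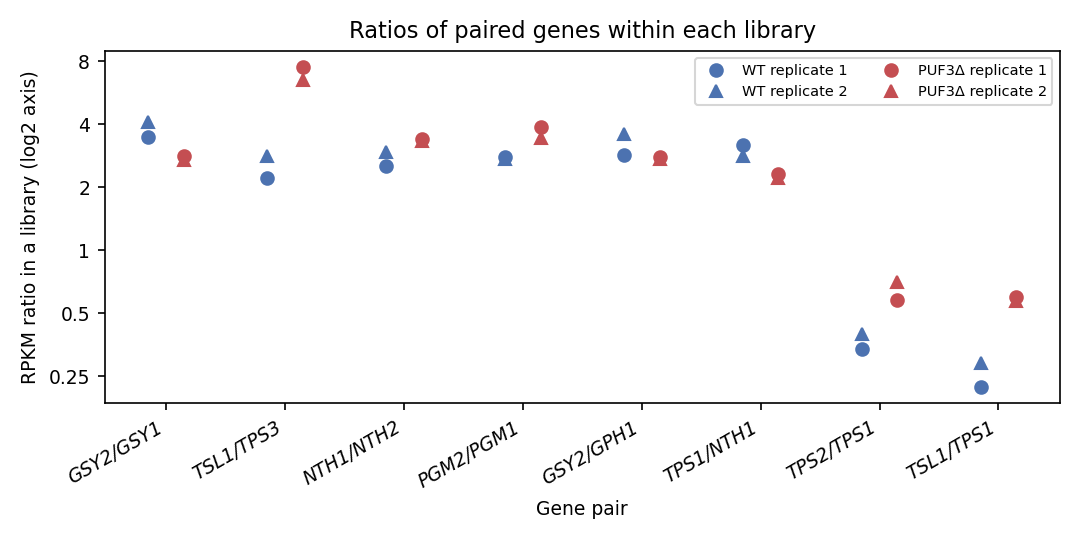
RPKM ratio of 8 gene pairs within each library (log2 axis), for the 2 WT libraries (blue) and the 2 *PUF3Δ* libraries (red). TSL1/TPS3, TSL1/TPS1 and TPS2/TPS1 are higher in *PUF3Δ*, GSY2/GSY1 and TPS1/NTH1 are lower, and the 2 strains nearly touch in GSY2/GPH1.

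Of the 2 enzymes that supply UDP-glucose, PGM2 (YMR105C, XIII from 475897 to 477606), the major phosphoglucomutase, had an RPKM of 98.4 and 107 in WT and 132 and 133 in *PUF3Δ*. It rose by a log2 difference of 0.37 (standard error 0.08, adjusted p = 0.0060 from limma), and the call was lost without *PUF3Δ* replicate 2 (adjusted p = 0.051) and with a loess for length and GC content (0.20, adjusted p = 0.085). PGM1 (YKL127W), its paralog, had an RPKM of 37.4 ± 2.96 (SD, n = 2) and 36.3 ± 3.29, and the ratio of PGM2 to PGM1 was 2.79 and 2.72 in WT and 3.90 and 3.45 in *PUF3Δ*.

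UGP1 (YKL035W, XI from 369891 to 371390), the pyrophosphorylase that makes UDP-glucose, was the second most abundant of the 10 genes in WT, with an RPKM of 334 and 346 in WT and 297 and 297 in *PUF3Δ*. Its log2 difference of -0.19 (standard error 0.07, adjusted p = 0.044 from limma) was lost without WT replicate 2 (-0.17, adjusted p = 0.083) or either *PUF3Δ* replicate (adjusted p = 0.19 in both cases), and with the replicate block (adjusted p = 0.079). Its direction turned under median-of-ratios scaling (0.19, adjusted p = 0.047). UGP1 shares 30 bases with YKL036C on the opposite strand, which had an RPKM of at most 0.617.

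Reads of one paralog could be counted for the other where the sequences are alike, since the authors allowed 2 mismatches. No window of 36 bases of GSY1 matched GSY2 with at most 2 mismatches, and none of TSL1 matched TPS3. Of the 2221 windows of NTH1, 8 (0.360%) matched NTH2, and of the 1675 windows of PGM2, 15 (0.896%) matched PGM1. The longest run shared by any of these pairs, shown because reads of NTH1 and NTH2 are hardest to tell apart there, has 33 bases and lies in NTH1 from 451472 to 451504 on chromosome IV.
NTH1 and NTH2: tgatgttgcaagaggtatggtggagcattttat

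In these libraries the difference between the strains varied with gene length, and the 10 genes are long, from 1488 to 3297 coding bases with a median of 2122.5, against 1185 over all genes tested. Among genes within 10% of a gene's length, the median log2 difference ran from -0.35 around TPS1, the shortest, to 0.15 around TSL1, the longest. The 1816 other genes in that range of length had a median log2 difference of -0.17, compared with 0.29 for the 10 genes, and 25.4% of them were higher and 43.3% lower in *PUF3Δ*. Against genes within 10% of its own length, GLC3 lay above 92.8% of 500 genes, TSL1 above 91.4% of 233 and TPS2 above 89.6% of 355. TPS1 lay above 66.6% of its 692, GSY2 above 49.2% of its 502 and GPH1 above 45.8% of its 345. A loess correction of each library for gene length left 4 of the 10 genes higher in *PUF3Δ*, against 18.4% of all genes, and 2 lower, against 52.7%. The 4 were GLC3, TSL1, TPS2 and PGM2, with log2 differences of 0.88, 0.60, 0.36 and 0.28, and the 2 were GSY2 and GPH1, with -0.46 and -0.44. Paralogs are close in length, so a correction for length can move the ratios between them only a little. After it, the shifts on the log2 scale were 1.44 for TSL1 to TPS3, 0.33 for NTH1 to NTH2, 0.41 for PGM2 to PGM1 and -0.44 for GSY2 to GSY1. A bias of the library preparation with length cannot be told apart from the strain, since each library holds one strain.

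**Figure D3:**
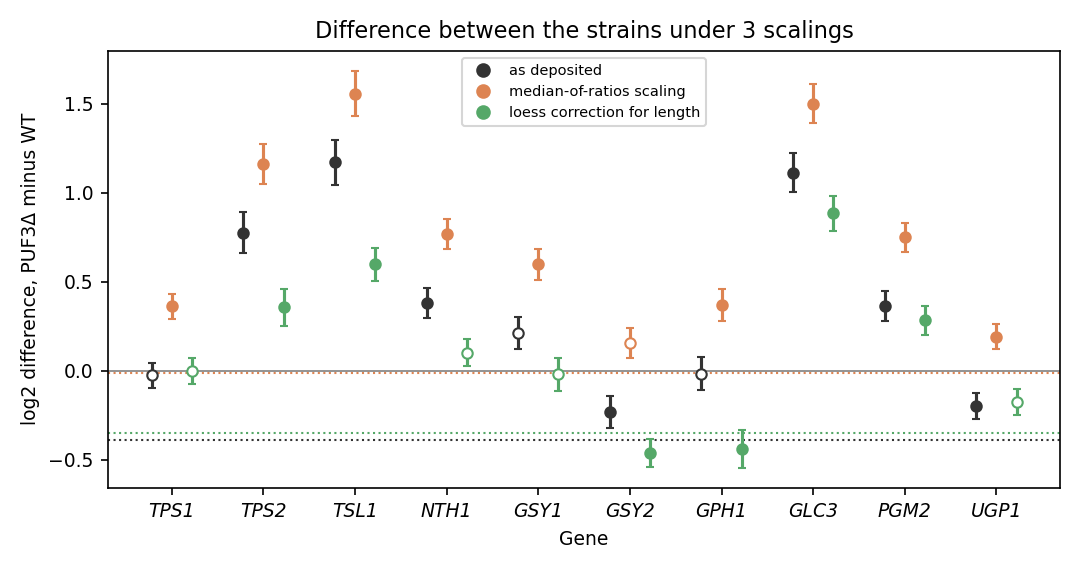
Log2 difference between *PUF3Δ* and WT with its standard error for the 10 genes, as deposited (black), after median-of-ratios scaling (orange) and after a loess correction for gene length (green), where filled points pass an adjusted p of 0.05 and dotted lines are the medians of all genes tested. TPS2, TSL1 and GLC3 are filled and above 0 in all 3, while TPS1, GSY1, GSY2, GPH1 and UGP1 change sides.

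Among 12 other enzymes around the same pathways, 7 were higher and 2 lower in *PUF3Δ* and 3 did not pass the test, with a median log2 difference of 0.40, beside 18.9% of all genes higher and 54.2% lower. Median-of-ratios scaling raises nearly all differences by a similar amount. A gene already higher could therefore hardly lose its call, nor a small decrease keep it. All 7 stayed higher with it (33.9% of all genes), and neither of the 2 lower ones, TPS3 and GLG1, was then lower. The largest increase as deposited was in GDB1 (YPR184W), the debranching enzyme of glycogen breakdown, with an RPKM of 28.3 and 27.2 in WT and 87.3 and 85.1 in *PUF3Δ* (log2 difference 1.60, standard error 0.09, adjusted p = 1.5e-05 from limma). ATH1 (YPR026W), the acid trehalase, had 15.6 and 19.2 in WT and 46.7 and 44.9 in *PUF3Δ* (log2 difference 1.35, standard error 0.13, adjusted p = 8.1e-05). In both genes the *PUF3Δ* libraries lay above both WT libraries, by more than the replicates differed. Both genes are long, and the loess for length reduced their log2 differences to 0.81 for GDB1 and 0.71 for ATH1, still past the threshold. SGA1 (YIL099W), a glucoamylase, had 12.4 ± 0.309 (SD, n = 2) and 19.9 ± 2.33, a log2 difference of 0.63 (adjusted p = 0.0045, and 0.052 without *PUF3Δ* replicate 1). SGA1 is known from sporulating diploid cells.

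The 2 glycogenins, which start a glycogen chain, differed in sign as deposited but not after median-of-ratios scaling (0.72 and 0.033). GLG2 (YJL137C) had an RPKM of 105 and 101 in WT and 125 and 134 in *PUF3Δ*, a log2 difference of 0.33 (adjusted p = 0.0085 from limma, and 0.089 without *PUF3Δ* replicate 2). GLG1 (YKR058W) had 107 and 127 in WT and 88.7 and 93.9 in *PUF3Δ*, a log2 difference of -0.35 (adjusted p = 0.018). Its call was lost without WT replicate 2 (adjusted p = 0.051), *PUF3Δ* replicate 1 (0.12) or *PUF3Δ* replicate 2 (0.063), and median-of-ratios scaling gave 0.033 (adjusted p = 0.79). TPS3, named above, had -0.30 (adjusted p = 0.027), which was lost without the same 3 libraries (adjusted p = 0.052, 0.18 and 0.076) and turned to 0.079 (adjusted p = 0.48) with median-of-ratios scaling.

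The kinases that phosphorylate glucose rose in *PUF3Δ*. HXK1 (YFR053C) had an RPKM of 193 and 219.7 in WT and 536 and 521 in *PUF3Δ* (log2 difference 1.35, standard error 0.09, adjusted p = 2.3e-05 from limma), and it had 1.39 after the loess for length, then the largest value of the 12. GLK1 (YCL040W) had 968 and 1096 in WT and 1939 and 1804 in *PUF3Δ* (log2 difference 0.86, standard error 0.09). HXK2 (YGL253W) rose less, with a log2 difference of 0.46 (standard error 0.07). HXK1 shares 143 bases with YFR052C-A on the same strand, which had an RPKM from 329.7 to 668, and GLK1 shares 106 bases with YCL042W, also on the same strand, with 369 to 1939.6. NTH2, PGM1 and PRM15 (YMR278W, also named PGM3), a relative of the phosphoglucomutases, had log2 differences of 0.082, -0.044 and 0.21 and did not pass the test (adjusted p = 0.43, 0.74 and 0.11).

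Of 23 regulators of these enzymes, 10 were higher and 8 lower in *PUF3Δ*, with a median log2 difference of 0.02, beside 18.9% and 54.2% of all genes. Past the threshold in the same direction after median-of-ratios scaling as well, which called 33.9% of all genes higher and 33.2% lower, were 10 higher and 4 lower genes. Since that scaling raises nearly all differences by a similar amount, only the lower calls could readily be lost by it. GIP2 (YER054C), a putative regulatory subunit of the phosphatase Glc7, which activates glycogen synthase, had an RPKM of 24.6 and 27.4 in WT and 52.7 and 59.4 in *PUF3Δ* (log2 difference 1.08, standard error 0.11). PSK1 (YAL017W), one of the PAS kinases that phosphorylate Ugp1, had 29.7 and 30.8 in WT and 62.8 and 61.1 in *PUF3Δ* (log2 difference 1.01, standard error 0.09, but 0.30 with an adjusted p of 0.014 after the loess for length). BCY1 (YIL033C), the inhibitory subunit of protein kinase A, had 187 and 226 in WT and 409 and 425 in *PUF3Δ* (log2 difference 1.01, standard error 0.10), and TPK3 (YKL166C), a catalytic subunit of that kinase, had 78.7 and 71.0 in WT and 26.4 and 27.8 in *PUF3Δ* (log2 difference -1.43, standard error 0.10). In each of the 4 genes the libraries of a strain lay closer to each other than to those of the other strain. The 4 were named for the size and call of their difference, so this separation is no further evidence. The strains did not overlap in 87.6% of all genes tested.

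**Figure D4:**
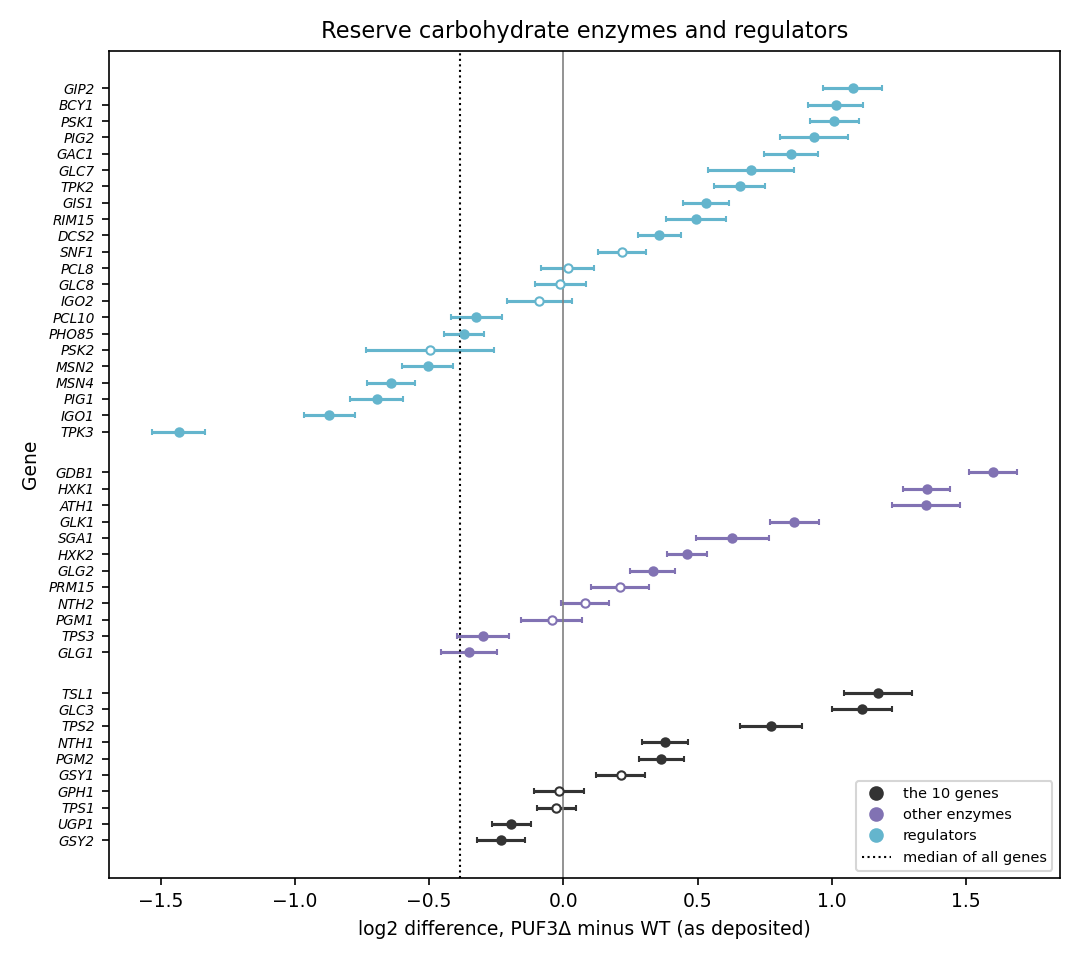
Log2 difference between *PUF3Δ* and WT with its standard error, on the values as deposited, for the 10 reserve carbohydrate genes, 12 other enzymes and regulators of these enzymes, each sorted by value, where filled points pass an adjusted p of 0.05 and the dotted line is the median of all genes. GDB1 at 1.60 and TPK3 at -1.43 mark the ends of the range.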

How the data were processed

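The genes and lists were chosen with earlier results of these data known. Per the labels and the paper's methods, the authors mapped the reads by SOAP2 with at most 2 mismatches and deposited 1 RPKM value per gene and library. The submitters' processing notes name the build R64, but only 16.6% of the 5984 genes matched by identifier had the same coordinates there (97.1% had the same length), so positions and sequences were read from RefSeq's R64 by identifier. The version of SOAP2, the strand of counting and the treatment of reads with several hits are not given in the sources used here. Reads were recovered from RPKM and length, with 100% of values whole within 0.1 read.

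limma 3.58.1 in R 4.3.3 (trend, no block) was fitted across all genes on log2(RPKM + 1), which understates the change of low genes, and tested on simulated data. Ratios and motifs used Python 3.11.15 and scipy 1.17.1. Alternatives were pseudocounts of 0.1 and 5, no filter or a mean RPKM of 5, median-of-ratios and quantile scaling, loess corrections (span 0.4) for length with and without GC content, a replicate block, no overlapping genes, and each library left out. The 600-base promoter window and the length-corrected ratios were added after seeing the data. Named by rule were the 10 genes, *PUF3*, the strain markers, the other enzymes, and regulators past the threshold with a log2 difference of at least 1 in size. The element of 1 gene and the values of 1 regulator are not reported here. Replicates differed by more than sampling noise (chi-square of 11.7 per degree of freedom in WT and 4.60 in *PUF3Δ*).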

Additional observations from a re-analysis of the deposited data

How the results depend on the processing

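TPS2, TSL1 and GLC3 were higher in *PUF3Δ* past the threshold under all 14 alternatives, with log2 differences from 0.32 to 1.16 for TPS2, 0.60 to 1.56 for TSL1 and 0.80 to 1.50 for GLC3. Median-of-ratios scaling called 1983 genes higher and 1942 lower and quantile normalization 1869 and 2003, against 1108 and 3175 as deposited. The loess for length and GC content called 975 of 5619 genes higher and 2988 lower. Of the 10 genes, 9 were higher with median-of-ratios scaling. With the loess for length and GC, 3 of the 10 were higher and 3 lower, with a median log2 difference of -0.056. By limma 0 were lower with either scaling and 0 with the replicate block (0 and 1 at an unadjusted p of 0.05), and 1 was with a pseudocount of 0.1, without a filter, or without overlapping genes. Without one library, between 0 and 2 were lower. Of the other enzymes, 0 were lower by limma with either scaling, also without adjustment, 1 with the loess for length and GC, and between 0 and 2 without one library. Of the regulators, 4 were lower with either scaling.

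Median-of-ratios scaling gave log2 differences of 0.36 for TPS1, 0.60 for GSY1, 0.16 for GSY2, 0.37 for GPH1, 0.19 for UGP1, 0.079 for TPS3, 0.033 for GLG1 and 0.33 for PGM1. Quantile normalization gave 0.070 for TPS1, 0.56 for GSY1, -0.13 for GSY2, 0.32 for GPH1, -0.089 for UGP1, 0.16 for TPS3 and 0.40 for PGM1. The loess for length gave 0.10 for NTH1, -0.020 for GSY1, -0.44 for GPH1, -0.18 for UGP1 and -0.22 for NTH2, and that for length and GC gave 0.027 for NTH1, -0.14 for GSY1, -0.50 for GPH1, 0.20 for PGM2 and -0.22 for NTH2. GSY2 had -0.23 with a pseudocount of 0.1 (adjusted p = 0.0501), without a filter (0.052) and with the replicate block (0.051), and UGP1 -0.19 with the block (0.079). Without one library the values ran from -0.32 to -0.14 for GSY2, -0.090 to 0.058 for GPH1 (0.034 without *PUF3Δ* replicate 1), 0.30 to 0.43 for PGM2 and -0.22 to -0.17 for UGP1, and PGM1 had 0.035 without WT replicate 2 and 0.046 without *PUF3Δ* replicate 1. The cause was not tested. The deviations of same-numbered libraries had a correlation of -0.01, which does not tell whether cultures or preparations were paired. The replicate block called 1067 genes higher and 3117 lower. In place of 6 genes with a stress response element, 3 had at least 2 elements and 10 had one in the 600-base window. With 1 library left in a strain, the lone library is assumed to vary like the others.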

Other observations

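The regulators of reserve carbohydrates moved in different directions within families, and these genes were chosen after their values were seen. Of the catalytic subunits of protein kinase A, TPK2 (YPL203W) had an RPKM of 63.6 and 72.3 in WT and 109.8 and 105 in *PUF3Δ* (log2 difference 0.66, standard error 0.09), whereas TPK3 was lower. After median-of-ratios scaling TPK2 had 1.04 and TPK3 -1.05 (adjusted p = 1.7e-04 for both from limma). Among the subunits that direct the phosphatase Glc7 to glycogen, GAC1 (YOR178C) and PIG2 (YIL045W) rose by log2 differences of 0.85 (0.53 after the loess for length) and 0.93, whereas PIG1 (YLR273C), the paralog of GAC1, fell by 0.69. PIG1 stayed lower after median-of-ratios scaling (-0.32, adjusted p = 0.024) but did not pass after quantile normalization (-0.23, adjusted p = 0.081). GLC7 (YER133W) itself had 96.8 and 139 in WT and 183 and 196 in *PUF3Δ* (log2 difference 0.70, adjusted p = 0.0059, with 0.44 without WT replicate 1).

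The transcripts of the stress factors whose element the promoters hold were not higher in *PUF3Δ*. The activity of these factors was not measured, and whether they had a part in the differences between the strains was not tested. MSN4 (YKL062W) had an RPKM of 110.4 and 123 in WT and 75.6 and 73.0 in *PUF3Δ* (log2 difference -0.64, and -0.26 with an adjusted p of 0.040 after median-of-ratios scaling). MSN2 (YMR037C) had 87.0 and 92.7 in WT and 66.5 and 59.6 in *PUF3Δ* (log2 difference -0.51, and -0.12 with an adjusted p of 0.30 after that scaling). GIS1 (YDR096W) and RIM15 (YFL033C), a transcription factor and a kinase of the entry into stationary phase, had log2 differences of 0.53 and 0.50 as deposited, which did not hold after the loess for length. GIS1 then had 0.12 (adjusted p = 0.24) and RIM15 was lower, at -0.37 (adjusted p = 0.0058), or -0.35 (adjusted p = 0.016) with GC content included. Without *PUF3Δ* replicate 1 the adjusted p of RIM15 was 0.057. IGO1 (YNL157W), a substrate of Rim15, fell by 0.87 as deposited, and had -0.46 after the loess for length and -0.48 after median-of-ratios scaling, past the threshold in each case.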
